A study of Mus musculus with 3 samples.

Results

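The 555 regions described here are peaks of the corepressor ETO2 called in the second of 2 ChIP-seq libraries without a counterpart in the first. Part or all of the DNA at their summits consists of short words that the mouse genome holds more than once. ChIP-seq sequences the DNA fragments that an antibody pulls down, and a peak is a stretch where a peak caller finds more fragments than it expects. Members were chosen from the 1873 peaks of replicate 2 by measured positions and by sequence. A member shares no base with any of the 2335 peaks of replicate 1, and less than 90% of the 24-mers (overlapping words of 24 bases) in the 100 bp around its summit occur at a single position of the 22 assembled mm9 chromosomes, with both strands counted. Of the 858 replicate 2 peaks without a replicate 1 overlap (45.8% of the replicate 2 list), 555 met the second condition and 303 did not. The members are 17.3% of the merged peak list of the series, which joins both replicates.

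The study mapped ETO2 in FLK1+ mesoderm sorted from embryoid bodies of wild-type mouse ES cells (strain C57Bl/6 X Sv129), with the antibody sc-9741x. The labels give both ChIP samples and the input as day 4 of differentiation, whereas the design text of the series gives day 3.5. Each replicate is 1 library from its own differentiation. Per the study's methods, replicate 1 was called against the input, that is, chromatin sequenced without immunoprecipitation, and replicate 2 without one. Each member therefore has a value in 1 library only, and a difference between the 2 libraries cannot be told apart from the use of the input. By the total reads that the study lists, replicate 1 was sequenced more deeply than replicate 2. In the calls the recovered genome average was 5.19 fragments for replicate 2. For replicate 1 it was 4.06, that of the input, to which the ChIP was scaled up 1.34 times. Total reads thus do not settle which library had more fragments in its call. The part of depth in the difference between the lists was not tested. The files are peak lists, so no value of replicate 1 exists where it has no peak, and the labelled cell type could not be checked against markers.

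ETO2, the product of Cbfa2t3, does not bind DNA itself. It is recruited in complexes with SCL/TAL1 and GATA factors, whose sites carry the letters WGATAR, where W is A or T and R is A or G. Arrays of repeated DNA pose a separate problem in any ChIP-seq experiment. A read from one of several identical copies cannot be placed, and an assembly may show fewer copies than the genome has, so that reads from many copies pile up on the few that are drawn. An input library shows such pile-ups because they do not depend on the antibody. The mouse genome holds young arrays of this kind on the X and Y chromosomes and around gene families such as the vomeronasal receptors, which detect pheromones.

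The sequences of a few summit windows show what counted as repeated. In the following lines (mm9, plus strand) capitals mark every base that belongs to at least 1 24-mer found more than once. They are the strongest member of the largest locus (chr8:19707471-19707570), the member of highest fold enrichment (chrX:73844280-73844379), the member whose 24-mers have the highest median count (chr3:10460903-10461002), and a member just inside the limit, in a coding exon of the gastric mucin gene Muc6 (chr7:148824661-148824760).
largest locus, chromosome 8: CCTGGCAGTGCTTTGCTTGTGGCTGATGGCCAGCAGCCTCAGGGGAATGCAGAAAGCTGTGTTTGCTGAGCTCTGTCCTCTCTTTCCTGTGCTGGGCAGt
highest fold, chromosome X: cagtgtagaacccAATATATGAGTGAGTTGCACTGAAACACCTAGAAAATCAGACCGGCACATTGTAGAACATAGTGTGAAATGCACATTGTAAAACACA
highest 24-mer count, chromosome 3: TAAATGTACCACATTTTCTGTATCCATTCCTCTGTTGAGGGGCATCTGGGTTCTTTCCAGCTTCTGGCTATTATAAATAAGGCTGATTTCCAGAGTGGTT
just inside the limit, Muc6: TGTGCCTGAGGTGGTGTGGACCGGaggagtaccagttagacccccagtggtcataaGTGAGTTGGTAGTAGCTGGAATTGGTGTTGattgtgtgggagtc
Capitals covered 99 of the 100 bases in the first window, 87 in the second, all 100 in the third and 54 in the fourth.

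Most members of gene arrays had close but not always identical copies. In the next lines the capitals mark the bases that differ between a summit window and a copy of it elsewhere, which need not be the nearest by distance. The first pair is the strongest member of the chromosome 8 locus that has 2 to 20 copies (chr8:19938689-19938788, plus strand) and a copy 191 kb away on the minus strand (chr8:19747983-19748082). The second is the strongest member of the chromosome X locus beside the vomeronasal receptor gene Vmn2r121 (chrX:121292132-121292231) with a copy 977 kb away (chrX:120315374-120315473). The third is the strongest member of the locus around Gm14950 (chrX:120784475-120784574) with a copy 454 kb away (chrX:120330806-120330905).
chromosome 8, member: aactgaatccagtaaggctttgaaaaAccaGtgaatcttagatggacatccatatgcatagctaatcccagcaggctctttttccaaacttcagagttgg
chromosome 8, copy: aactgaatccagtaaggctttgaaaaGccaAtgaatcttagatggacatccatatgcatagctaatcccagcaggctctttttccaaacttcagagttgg
Vmn2r121 locus, member: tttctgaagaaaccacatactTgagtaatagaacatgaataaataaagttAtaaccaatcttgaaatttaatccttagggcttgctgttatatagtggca
Vmn2r121 locus, copy: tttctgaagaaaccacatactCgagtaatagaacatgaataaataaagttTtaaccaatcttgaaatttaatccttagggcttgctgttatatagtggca
Gm14950 locus, member: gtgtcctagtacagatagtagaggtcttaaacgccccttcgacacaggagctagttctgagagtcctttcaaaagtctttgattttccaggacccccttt
Gm14950 locus, copy: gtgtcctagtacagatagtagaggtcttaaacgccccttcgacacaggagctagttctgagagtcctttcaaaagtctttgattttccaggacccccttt
The first and second pairs differ at 2 of 100 bases and the third at 0. These windows have 8, 15 and 14 copies at 90% identity or more, themselves included.

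Repeated windows as such were as common among the replicate 2 peaks as in the genome. Of the 1873 replicate 2 peaks, 610 (32.6%) had a repeated window, and so had 8334 of 25578 windows (32.6%) laid every 100 kb across mm9. Whether replicate 1 had a peak too split them unevenly. The repeated window was found in 555 of the 858 peaks seen in replicate 2 alone (64.7%), in 55 of the 1015 peaks shared with replicate 1 (5.42%) and in 154 of the 2335 peaks of replicate 1 (6.6%). These shares use the same 2 conditions that chose the members and are given without a test. Members near the limit were ordinary in height. The 3 just inside it, with 89.6%, 89.6% and 88.3% of 24-mers at a single position, had folds of 4.36 (in Muc6), 5.33 (24.9 kb from the pseudogene Gm14638) and 4.3 (3.22 kb from Gm16592, an immunoglobulin heavy-chain V segment). The 3 replicate 2-only peaks just outside, each with 90.9%, had folds of 5.1 (56.9 kb from a U6 snRNA gene), 5.01 (in an intron of 9030224M15Rik) and 4.2 (in an intron of the sialyltransferase gene St6galnac1).

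The members were unevenly spread over the chromosomes. Chromosome X held 110 of them, chromosome 4 held 62, and chromosomes 1 and 8 held 59 each, which together make more than the rest of the genome. Chromosome Y held 29, at 1.82 members per Mb, against 0.66 per Mb on X and between 0.0484 per Mb (chromosome 9) and 0.448 per Mb (chromosome 8) on the autosomes. Each density divides by the full chromosome length, undetermined bases included. The sequenced part of Y ends soon after the locus described below, so its density per sequenced Mb is higher. Of the members 5.23% lay on Y and 19.8% on X, against 4.29% and 0.99% of the replicate 2-only peaks in unique windows. Replicate 2 had 126 peaks on X in all, of which 12 shared and unique, whereas replicate 1 had 30 peaks on X and 3 on Y. The single member on the mitochondrial genome lay in mt-Nd6, which encodes a subunit of respiratory complex I, and had 144 fragments over a local background of 66.6.

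**Figure D1:**
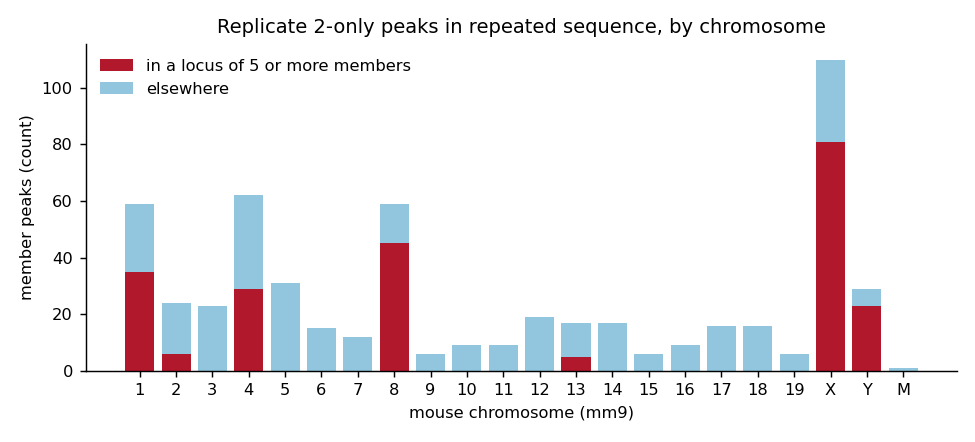
Number of member peaks (vertical axis) on each mouse chromosome (horizontal axis), with members in the 16 loci of 5 or more members in red and the others in blue. Chromosome X stands highest with 110 members, and most of the members on X, Y and 8 are red.

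When members within 100 kb of each other were joined, the 555 fell into 280 loci. Of these, 224 loci had 1 member and 40 had 2 to 4 (107 members in all). The remaining 16 loci had 5 or more members and held 224 members, 40.4% of the total. Replicate 1 had 5 peaks inside these 16 spans against 243 of replicate 2, and 14 of the 16 held no replicate 1 peak. The full lists held 2335 peaks for replicate 1 and 1873 for replicate 2. The spans were built from members, which by rule overlap no replicate 1 peak, so this contrast follows in part from the selection. The same holds for the absence of replicate 1 peaks in the single loci and the chromosome X stretch below.

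The largest locus, chr8:19707385-20030295, held 45 members in 323 kb and no other peak of either replicate. It covers the noncoding gene 2610005L07Rik, nearest gene of 35 members, together with 4930467E23Rik, 6820431F20Rik and Gm15319, and 35 of its summits lay in introns. The fragments over its summits ranged from 23 to 98 with a median of 49, and the folds from 2.65 to 7.96. The windows had a median of 3 copies, 32 of the 45 had at least 2, and for 33 all copies lay on chromosome 8. An assembly gap (a run of at least 50 undetermined bases) lay 4.24 kb from the nearest summit.

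On chromosome X, 6 of the 16 loci lay within a single stretch of 2.73 Mb, chrX:120113967-122847694. They held 76 members, and the stretch held 77 of its 79 replicate 2 peaks as members and 0 peaks of replicate 1. In this stretch the copies were alike in number: 61 of the 77 windows had 6 to 20 copies, the median was 13, and for 71 all copies lay on X. The 27 members beside Vmn2r121 (chrX:121210483-121325120) were all intergenic, with 36 to 197 fragments over the summit and a median of 13 copies. The 16 members around Gm14950 and Gm6604 (chrX:120660790-120785861) also had a median of 13 copies, and the 12 near Gm17521 (chrX:120113967-120146305) one of 14. The other 3 loci of the stretch bordered Astx3 (9 members), Astx6 (7 members) and Gm14971 (5 members). The Astx genes, amplified spermatogenic transcripts encoded on X, are a multi-copy family active in the testis. The locus at Astx6 held the highest fold of any member in the 16 loci, 13.8 with 89 fragments in an intron of Astx6, at 13 copies and with 20.8% of the surrounding 37-mers at a single position.

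The locus on chromosome Y (chrY:2788384-2900293) stood apart by its height. Its 23 members, 236 kb or more from the nearest gene (Gm3395), had 124 to 233 fragments over the summit, and the 3 highest summits of all 555 members, with 233, 232 and 226 fragments, lie in it. Its local background was as unusual: the median was 15.9 times the genome average of 5.19 fragments and the highest 21.8 times. The folds were therefore low, with a median of 2.15. The median window of the locus had 2 copies on the assembled chromosomes and 194 on the contigs of the assembly that have no place on a chromosome. The last sequenced stretch of the Y assembly ends near it, 10.6 kb from the summit with 232 fragments.

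The other arrays were smaller. On chromosome 1, 28 members lay over C130026I21Rik, A530032D15Rik and neighbouring predicted genes (chr1:85071633-85342250; folds 2.7 to 10.3), and 7 lay further along over Sp110 and Sp140 (chr1:87485275-87521844; folds 3.02 to 6.81), which encode chromatin-reading proteins of nuclear bodies. On chromosome 4, 3 loci within 1.96 Mb held 11, 10 and 8 members over predicted genes, among them Gm13242, Gm13251 and Gm13154, and the pseudogenes Smarca5-ps and Vmn2r-ps19. The locus near the end of chromosome 2 (chr2:181652046-181747608, 6 members) covered Gm14496. Near the prolactin-family genes Prl2c2 and Prl2c3 on chromosome 13 (chr13:12916097-13032077) lay 5 members, with folds of 3.41 to 4.77. The last locus, chrX:166440475-166446329, had 5 members within 5.86 kb at Mid1, an E3 ubiquitin ligase gene that spans the boundary of the pseudoautosomal region in laboratory mice. Its nearest gap was 0.864 kb away, and its windows had a median of 1 copy.

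**Figure D2:**
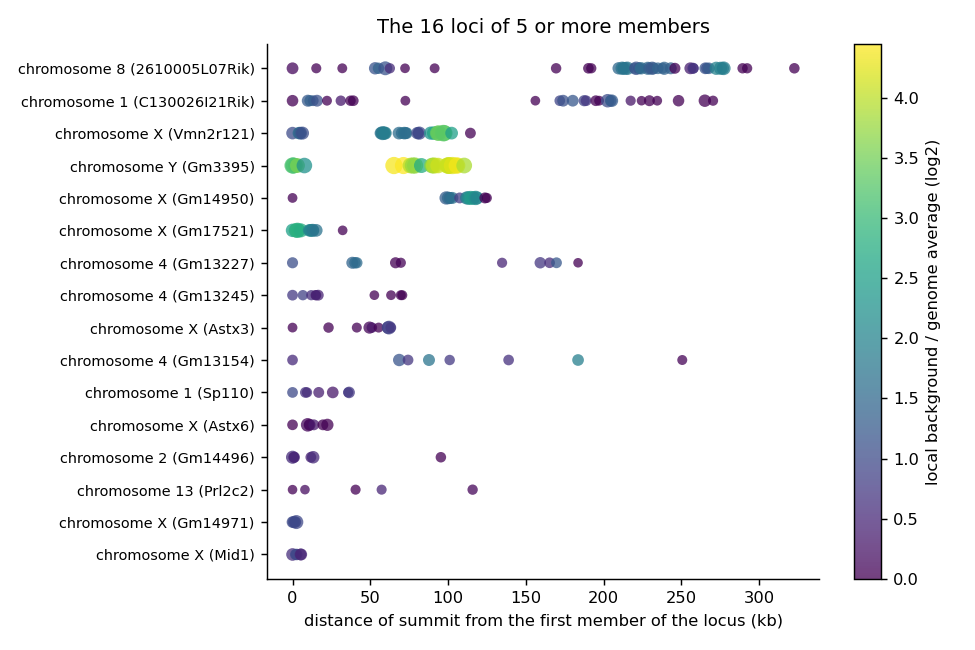
Summits of the members in the 16 loci of 5 or more members (one row each, labelled by chromosome and by one of its nearest genes), by distance in kb from the first member of the locus. Dot area grows with the square root of the fragments over the summit and colour gives the log2 ratio of local background to genome average, which is highest in the chromosome Y locus (median ratio 15.9).

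Replicate 1 and its input give a value at 5 places inside the 16 loci. Of the 5 replicate 1 peaks, 3 lay in the chromosome Y locus and 2 in the Sp110 and Sp140 locus. From their fold and p-value the input background that the caller used was recovered. On Y it was 104, 74 and 60.4 fragments, which is 25.6, 18.2 and 14.9 times the input's genome average of 4.06. At Sp110 and Sp140 it was 9.37 times the average for one peak and 1.23 times for the other. At 4 of the 5 places the input background was thus at least 9.37 times its average. For the other 14 loci no input value was recovered, and whether their DNA was in excess in the input was not tested.

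The local background of replicate 2 itself, which without an input is taken from the ChIP fragments around the peak, was at the genome average for 285 of the 555 members (51.4%, 95% Wilson interval 47.2 to 55.5) and above 2 times the average for 130 (23.4%, 20.1 to 27.1). At the average were 36.7% of all replicate 2 peaks, 38.0% of unique replicate 2-only peaks and 49.1% of shared peaks in repeated windows. Above 2 times the average were 9.98%, 11.6% and 3.64% of these. Inside the 16 loci the median was 2.1 times the average, with 43 of 224 members at the average. Elsewhere the median was 1 times the average, with 242 of 331 at it. The summit fragments followed the same order, with a median of 50 inside the loci and 31 outside, while the fold enrichment, which divides by the background, was lower inside (median 3.91) than outside (4.85). Over all members the fragments ranged from 19 to 233 with a median of 35 and the folds from 1.53 to 26.1 with a median of 4.52. These heights come from the same call that chose the members and are descriptions.

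**Figure D3:**
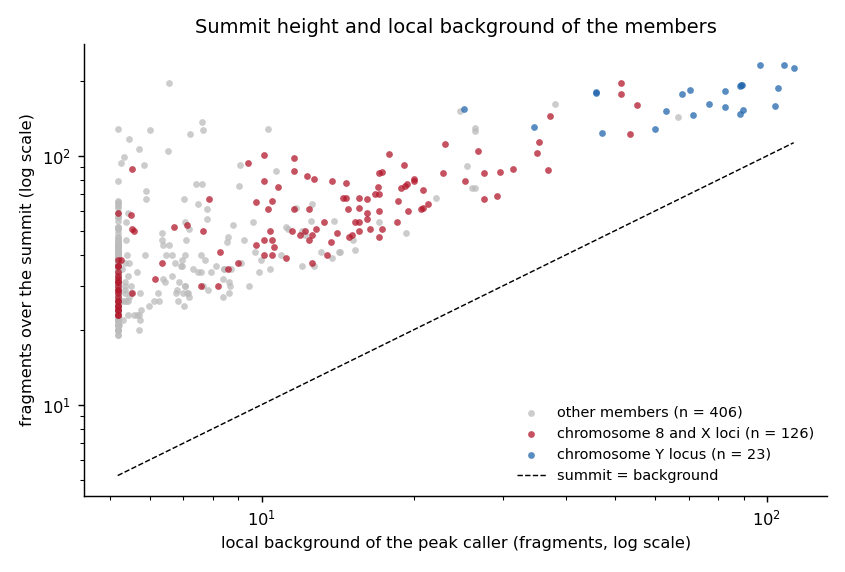
Fragments over the summit against the peak caller's local background, both in fragments on log axes, for the 555 members; the dashed line marks equality. The column of dots at the left is the genome average of 5.19 fragments, and the 23 members of the chromosome Y locus (blue) lie at the upper right with 124 to 233 fragments.

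Copy number was counted as the number of places where a window matches at 90% or more of its 100 bases without gaps and with at least 1 identical 24-mer. By this count 197 members (35.5%) had no further copy on the assembled chromosomes. They met the rule by repeated 24-mers whose wider setting was not examined. A copy with an insertion or deletion can be missed, and matches that overlap closely count as 1. Of these 197, 37 had a median 24-mer count over 1000. A further 159 members had 2 to 5 copies, 105 had 6 to 20, 20 had 21 to 100, 26 had 101 to 1000 and 48 had more than 1000. Of the 105 members with 6 to 20 copies, 65 lay on X and 78 had all copies on their own chromosome. Members with more than 100 copies were of another kind: none had all its copies on 1 chromosome, and their copies lay on a median of 20.5 chromosomes (101 to 1000 copies) or 21 (more than 1000).

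Where a window had 2 to 20 copies (264 members), the other copies numbered 1405, of which 1095 (77.9%) lay on the member's own chromosome at a median distance of 976 kb. Few of them were peaks. A replicate 2 peak overlapped 74 of the 1405 (5.27%) and a replicate 1 peak 4. For 62 of the 264 members (23.5%) at least 1 other copy lay under a replicate 2 peak.

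The dispersed repeats lay mostly outside the arrays. A median 24-mer count over 1000 was found for 91 members (16.4%, 13.5 to 19.7), of which 86 lay outside the 16 loci. In the grid it was found for 1428 of 25578 windows (5.58%). Only a repeated window can have such a count, and all members have one. The grid windows that compare with the members are thus the 8334 repeated ones, which hold all 1428. The 16.4% and the 5.58% have unlike bases, so their difference shows no excess of such windows among the members. The 91 members lay on 19 chromosomes, and 72 of the 91 were intergenic. Their local background was at the genome average in 90 of 91, with a median of 30 fragments over the summit (range 20 to 59) and a median fold of 5.01. The highest median count was 26042, at the window on chromosome 3 shown above, 20.8 kb from the sorting nexin gene Snx16, which had 23 fragments and a fold of 3.88. The window with the most copies, 56660, lay on chromosome 12, 34.9 kb from a SNORA73 snoRNA gene, with 29 fragments and a fold of 4.85. The next 3 by count were on chromosome 12 (median count 17532, fold 4.04), in an intron of the potassium channel gene Kcnh1 on chromosome 1 (15590, fold 6.46) and in an intron of the glycosyltransferase gene Mgat4c on chromosome 10 (15527, fold 4.52). Sequence was shared among them: 69 of the 91 had a 24-mer in common with another of the 91.

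The share of words of read length with a single position differed between these classes. Within 350 bp of the summit, the longest insert the mapping allowed, a median of 46.5% of the 37-mers (the read length) occurred at a single position. For members with more than 1000 copies the median was 5.65%, and for those with 6 to 20 copies 49.8%. In 106 members (19.1%) it was under 10%. This held for 0 of the 303 replicate 2-only peaks in unique windows, which follows from the selection. At least 90% of the shorter words in a unique window occur at a single position. A 37-mer that contains such a word is itself at a single position, so the 0 is no separate finding. In 10 members no 37-mer in this range was unique, although the mapping kept uniquely placed pairs alone, and these had 25 to 47 fragments over the summit and folds of 4.2 to 7.75. How their fragments were placed was not tested.

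**Figure D4:**
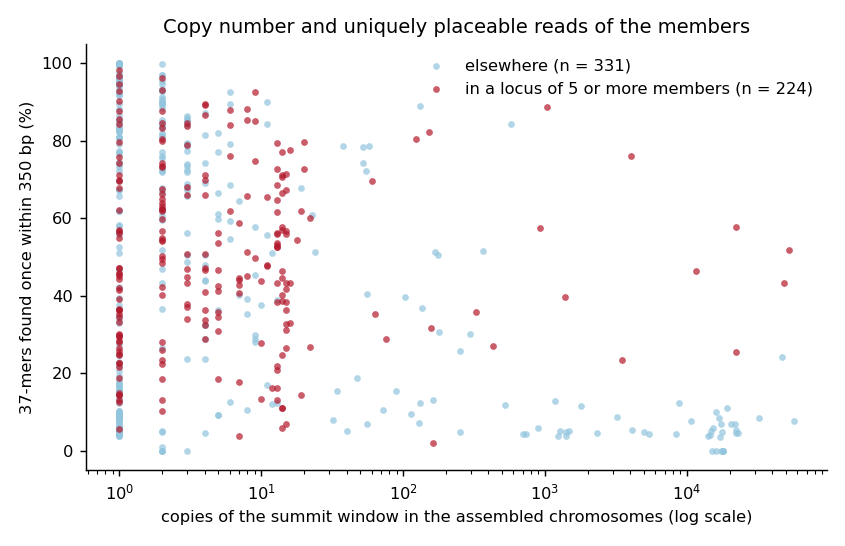
Copies of the summit window on the assembled chromosomes (horizontal, log scale) against the percent of 37-mers within 350 bp that occur at a single position (vertical) for the 555 members, with the 224 in loci of 5 or more in red. The red column between 6 and 20 copies is mostly the chromosome X stretch (median 13 copies), and members with over 1000 copies lie mostly under 10%.

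Further copies lay on the 189 contigs of the assembly without a chromosome position (62.1 Mb), which were not counted in the rule. A copy there was found for 263 members (47.4%), and 148 members had at least 100, of which 63 were on X and 25 on Y. In the loci of the X stretch the median number per window ran from 99 (Gm14971) to 202 (Astx6), against placed medians of 10 to 14. Members with 100 or more unplaced copies had a median background of 1.52 times the average and a median of 51 fragments, and 66 of 148 exceeded 2 times the average. The 292 members without an unplaced copy had a median background at the average and 31 fragments, and 21 exceeded 2 times. The part of these unplaced copies in the height of the peaks was not tested.

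Fold divides by the local background, which was higher inside the 16 loci than outside. The 10 strongest members by fold had windows with 1 to 131 copies on the assembled chromosomes. The highest, 26.1 with 196 fragments over a background of 6.55, lay in an intron of 4930468A15Rik on X and had 3 copies. The second, 20.8 with 128 fragments, lay in an intron of 2210408I21Rik on chromosome 13 and had 131 copies on 4 chromosomes. The next 4 were intergenic, near Dpy19l2 on chromosome 9 (18.3), a SNORA17 gene on chromosome 4 (18.2), the aldo-keto reductase gene Akr1c21 on chromosome 13 (16) and the potassium channel gene Kcnh5 on chromosome 12 (16). The rest of the first 10 were in introns of Apool (15.8), a mitochondrial inner-membrane protein gene, of the lincRNA Gm16724 (15.2) and of the adhesion gene Mdga2 (15.1), or near the pseudogene Gm7103 (14.8). All 10 had a local background between 1 and 1.47 times the average, and none belonged to a locus of 5 or more. By fragments the order was another one: the 3 windows of the chromosome Y locus came first, then a window 58 kb from Vmn2r121 with 197 fragments, whose background was 9.9 times the average, and then the 196 of the member in 4930468A15Rik.

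By gene name, the members concentrated in predicted and clone-named genes. The nearest or overlapping gene was a predicted gene (Gm number) for 216 members (38.9%), against 24.4% of the replicate 2-only peaks in unique windows and 13.6% of the shared unique peaks, and a Rik clone for 82 (14.8%, against 5.94% and 7.4%). Of the 38 name groups examined 15 had a member. Vomeronasal type 2 receptors had 28 members, of which 27 at Vmn2r121 and 1 at Vmn2r20. Their share was 5.05%, against 0.33% of the replicate 2-only peaks in unique windows. Type 1 receptors had 6 members (1.08%, against 1.65% of those unique peaks) and olfactory receptors 2 (0.36%, against 0.66%). The prolactin family had 6 (1.08%, against 0%), the Speer genes 4 and cytochrome P450 genes 4 (each 0.721%, against 0.33%). Defa21 and the Tdpoz genes had 2 each (0.36%, against 0%). Immunoglobulin or T cell receptor segments, taken by their annotated biotype, were nearest to 14 members, of which 11 lay on chromosome 12. Segments of this kind were nearest to 4 of the replicate 2-only peaks in unique windows. Only 5 of the 14 carry an Ighv or Igkv symbol, and the other 9 are named as predicted genes and are also among the 216. snRNA genes were nearest to 17 members (3.06%, against 1.32% of those unique peaks) and snoRNA genes to 12 (2.16%, against 1.65%). rRNA genes were nearest to 3, all 5S (0.541%, against 1.65%). No member was nearest to a gene of 23 name groups, such as Xlr, Rhox, Mage, Mup or Zscan4. These counts were not tested.

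Summits lay between genes for 376 members (67.7%), in introns for 153 (27.6%), in exons of noncoding genes for 12, in untranslated regions for 8 and in coding exons for 6. Of all replicate 2 peaks, 56.8% lay between genes and 38.9% in introns. Within 1 kb of the start of a protein-coding gene lay 10 members (1.8%). This share was 6.93% for unique replicate 2-only peaks, 1.82% for shared peaks in repeated windows and 4.64% for all replicate 2 peaks. Of the 10 members, 3 lay at C130026I21Rik and 1 each at Sp110, Gm4981, Litaf, Olfr209, 5730460C07Rik, mt-Nd6 and Ank1, the ankyrin of the red cell membrane skeleton. The member at Litaf had the highest fold of the 10, 10.6 with 72 fragments. By start site, 283 different protein-coding genes were the nearest to at least 1 member, and 226 of these genes (10.5% of all genes nearest to any peak) were nearest to no other peak of either replicate. Of 36 blood, endothelial and mesoderm genes that the study names, such as Tal1, Runx1, Gata2 and Fli1, 25 were nearest to another peak and 0 to a member. The study named many of them for ETO2 binding in these same data, so the 25 follow in part from that choice. Among all 2147 genes nearest to any peak, the 283 were nearest to a member, and the 0 of 36 was not tested.

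The GATA motif was as frequent in the members as in the genome. A or T, then GATA, then A or G, read on either strand, occurred in 114 of 555 summit windows (20.5%, 17.4 to 24.1), in 52.3% of all replicate 2 peaks and in 20.6% of the grid windows. Windows of the same length 500 bp to the left of the members' summits held it in 119 (21.4%), and the difference did not pass the exact McNemar test (2-sided p = 0.76, the larger of the values for the left and right flank). The replicate 2-only peaks in unique windows held it in 125 of 303 (41.3%, 35.9 to 46.9), which was more often than the members (2-sided Fisher's exact test, p = 2.2e-10). Shared peaks held it in 45 of 55 repeated windows (81.8%, 69.7 to 89.8) and in 72.5% of unique windows. The share in the members was alike inside the 16 loci (19.6%) and outside (21.1%). The members' windows had a median GC content of 43%, against 52% in unique replicate 2-only peaks, and the part of base composition in the motif counts was not tested.

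Members also lay closer together than the other peaks of replicate 2. Another replicate 2 peak lay within 10 kb of 286 members (51.5%, 47.4 to 55.7), against 74 of the 303 unique replicate 2-only peaks (24.4%, 19.9 to 29.6; 2-sided Fisher's exact test, p = 6.2e-15) and 27.5% of all replicate 2 peaks. The 16 loci were themselves defined by members lying close together, so leaving them out lowers the members' share by construction. Without any peak in their spans the shares were 26.3% and 21.2% (exact p = 0.16). With a limit of 50% in place of 90% they were 45.7% and 39.2% (exact p = 0.059).

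An assembly gap lay within 100 kb of 137 members (24.7%, 21.3 to 28.4), against 22 unique replicate 2-only peaks (7.26%, 4.84 to 10.7; 2-sided Fisher's exact test, p = 5.7e-11), 9.4% of all replicate 2 peaks and 1.69% of the grid windows. Without the 16 loci the shares were 11.5% and 5.21% (exact p = 0.006), and with 1 peak kept per 10 kb cluster 13.6% and 2.03% (exact p = 2.9e-07). At the 50% limit the shares, 20.9% and 16.7%, no longer differed past the threshold (exact p = 0.13), nor did those for a gap within 10 kb, 6.67% and 3.63% (exact p = 0.086). Peaks of one array share their source, so the p-values of these comparisons, which treat peaks as independent, are too small, and they describe 1 library.

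**Figure D5:**
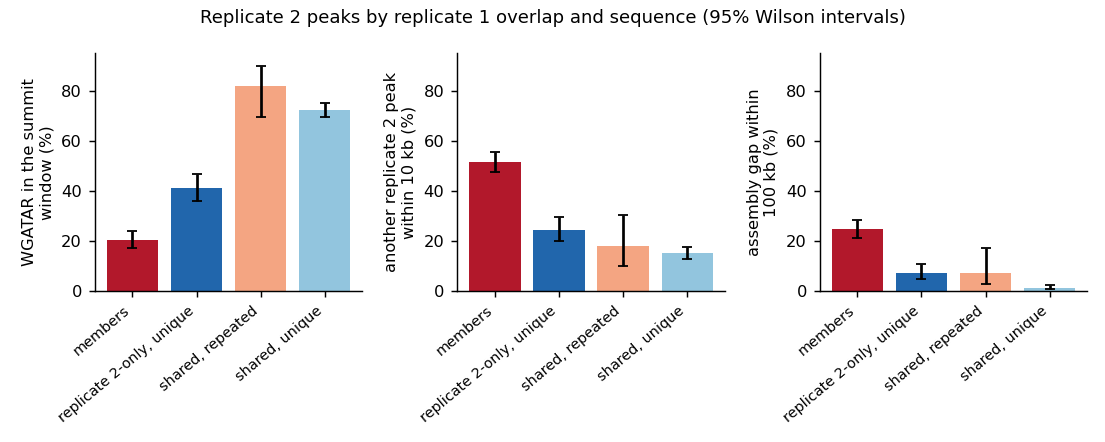
Percent of replicate 2 peaks with a GATA motif (WGATAR) in the summit window, with another replicate 2 peak within 10 kb, and with an assembly gap within 100 kb, for the members (n = 555), replicate 2-only peaks in unique windows (n = 303) and peaks shared with replicate 1 in repeated (n = 55) or unique (n = 960) windows. Bars are shares and error bars 95% Wilson intervals, and the members are lowest for the motif (20.5%) and highest for neighbours (51.5%) and gaps (24.7%).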

How the data were processed

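ETO2 ChIP-seq of FLK1+ cells was analysed from the peak lists of the 2 replicates and the merged list, and the input entered only through the replicate 1 call. Per the study's methods and the labels, the authors aligned trimmed 37 bp read pairs to mm9 with Bowtie, kept uniquely placed pairs with inserts up to 350 bp, removed duplicates with SAMtools, and called peaks with MACS2 2.0.10 at q 0.05, replicate 1 against the input and replicate 2 without it. The deposited lists hold a fold enrichment over local background, −log10 p and q, a score (10 times −log10 q as a whole number) and the summit. Whether the Bowtie index held the unplaced contigs is not given in the sources used here.

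Words of 24 and 37 bases were counted on the 22 assembled chromosomes, and copies, gaps and the annotation (GENCODE vM1) were read on the same build. Fragments over the summit and the local background were solved from fold and p, which returned every printed −log10 p to within 0.000208. Library depth is not in the lists. The study lists total and mapped reads, which were not used here, and gives the input and replicate 2 the same mapped total. Loci joined summits within 100 kb. Named were loci of 5 or more members, the 10 highest folds, the 5 highest 24-mer counts, the 5 highest fragment counts, 3 peaks on either side of the limit, and members nearest to genes the study names. The members, name groups and tests were chosen with earlier results of these data known. Intervals of shares are Wilson's at 95% and hold counting error alone. Comparisons used Fisher's exact and exact McNemar tests, 2-sided (scipy 1.17.1; Python 3.11.15, pysam 0.24.0, numba 0.67.0), tested on simulated data. Alternatives changed the limit, word length, window, overlap, peak threshold, clustering and distances. One group of members is not reported here.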

Additional observations from a re-analysis of the deposited data

How the results depend on the processing

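The count of 555 members fell to 368 with a 50% limit, to 206 with a fold of at least 5, to 332 with 1 peak per 10 kb cluster and to 331 without the 16 loci of 5 or more members. It stayed within 1.5 times 555 under the other alternatives, from 437 (37-mers) to 610 (without replicate 1), with 575 when 24-mers on the unplaced contigs were counted and 526 without chromosome Y. These last 2 settings and the omission of the 16 loci were chosen after seeing the data. The comparison of the motif with unique windows kept its direction and its side of the threshold in every alternative, with differences from -9.28 (50% limit) to -38.9 percentage points (without replicate 1). The comparison with flanks passed the threshold in none (p from 0.14 to 1), and without replicate 1 the difference was 3.77 points in the other direction. Clustering within 10 kb lost the call at the 50% limit (difference 6.47 points) and without the 16 loci (5.1 points). Gaps lost it at the 50% limit (4.19 points) and at 10 kb (3.04 points). The 16 loci were chosen for members lying close together, so their omission lowers clustering by construction. For the other losses the cause was not tested. Members with 2 or more copies numbered 358 at 90% identity, 261 at 95% and 445 at 80%, and 166 or 273 members lay in loci of 5 or more with linkage at 10 kb or 1000 kb. Without replicate 2 there are no members. No paired analysis was possible because the replicates share no second group to pair. The lists give no values outside peaks, which limits what can be said of single copies, and the libraries differ in total reads.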
